A study of Mus musculus with 9 samples.

Results

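The variable segments of the T cell receptor (TCR) α and β chains were followed in splenic Tregs with and without gp96. They were taken by symbol as every entry that starts with Trav (α) or Trbv (β), which gave 111 of the 25500 entries of the expression table, 83 Trav and 28 Trbv. Tregs are CD4+ T cells that restrain other immune cells and are defined by the transcription factor Foxp3. All mice carried Foxp3 eGFP-Cre-ERT2, which places GFP and a tamoxifen-inducible Cre recombinase under Foxp3 control, on a C57BL/6 background, and the study used age-matched adult animals. WT mice had intact Hsp90b1 (Hsp90b1 WT/WT). KO mice had floxed Hsp90b1 (Hsp90b1 fl/fl), the gene for gp96, a chaperone of the endoplasmic reticulum. Both genotypes received tamoxifen, 75 mg/kg for 10 days, after which 1000000 GFP+ splenic cells per sample were sorted and sequenced. There were 4 WT and 5 KO libraries, while the study's methods give the same number of mice for both genotypes and do not say which KO library was left out. Cre acts only in Foxp3-expressing cells, so KO refers to Tregs and not to the mouse.

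An αβ T cell builds the chains of its receptor in the thymus, by joining a V segment to other gene segments and to a constant gene. The V segment encodes the loops that mainly meet the MHC molecule and the first residues of the third loop (CDR3), which mainly meets the peptide. Mature T cells keep the segments they joined, so the share of each segment among all V transcripts describes which segments a population uses in its TCR transcripts. In bulk RNA, fewer cells that use a segment and less RNA of that segment per cell cannot be told apart. CDR3 sequences, clones and αβ pairs were not analysed here.

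The ends of the segments on which the results turn are shown first, because this is where each V segment is joined. They are the last 42 bases of the germline coding sequence, 5′ to 3′ on the strand of the gene, from GENCODE M21 on GRCm38 (mm10), and capitals mark in-frame cysteine codons. The conserved cysteine that opens CDR3 is the marked one, and in Trbv1 the first of 2.
Trbv1: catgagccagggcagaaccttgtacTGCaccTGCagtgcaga
Trbv31: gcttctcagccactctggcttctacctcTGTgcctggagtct
Trbv3: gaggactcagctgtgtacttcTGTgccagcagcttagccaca
Trbv12-1: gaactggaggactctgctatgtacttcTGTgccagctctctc
Trbv12-2: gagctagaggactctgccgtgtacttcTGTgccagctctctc
Trbv20: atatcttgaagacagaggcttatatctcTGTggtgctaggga
Trbv13-2: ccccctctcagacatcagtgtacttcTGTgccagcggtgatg
Trbv13-3: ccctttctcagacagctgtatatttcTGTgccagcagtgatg
Trav15-2-dv6-2: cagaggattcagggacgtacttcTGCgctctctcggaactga
Trav4-4-dv10: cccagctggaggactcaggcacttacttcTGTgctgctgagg
Trav4-3: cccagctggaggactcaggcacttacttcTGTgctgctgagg

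These stretches lie at chr6:40891844-40891885 for Trbv1 (ENSMUSG00000076461.2), chr6:41048787-41048828 for Trbv3, chr6:41114026-41114067 for Trbv12-1 and chr6:41119323-41119364 for Trbv12-2. Trbv13-2 ends at chr6:41121791-41121832, Trbv13-3 at chr6:41130544-41130585 and Trbv20 at chr6:41188936-41188977, all on the plus strand. Trbv31 (ENSMUSG00000076499.3) ends at chr6:41557693-41557734 on the minus strand, since it is inverted and lies beyond the β constant genes. The α segments end at chr14:53649953-53649994 (Trav15-2-dv6-2), chr14:53684136-53684177 (Trav4-4-dv10) and chr14:53599369-53599410 (Trav4-3), on the plus strand. Trbv12-1 and Trbv12-2 were identical at 340 of 385 aligned bases (88.3%), and Trbv13-2 and Trbv13-3 at 308 of 340 (90.6%). Trav4-4-dv10 and Trav4-3 were identical at 331 of 361 aligned bases (91.7%) and over the whole stretch shown.

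The 2 loci differed in how well a read can be placed. In 26 of 28 Trbv segments, every stretch of 100 transcript bases occurred in no other annotated gene. The exceptions were Trbv4 and Trbv5, which had 32.7% and 26.8% of their stretches to themselves and share the rest with the transcript 5830405F06Rik. Their measured mean shares were 0.128% and 0.209%, which may be too low if shared reads were not assigned to them. Among the 83 Trav segments, 25 shared no stretch. A further 18 had fewer than 50% of their stretches to themselves, because blocks of the mouse α locus are duplicated and carry d or n in the name. The sources used here do not say how reads that fit several genes were counted. Values of single Trav copies and of Trbv4 and Trbv5 are therefore uncertain, and the Trbv sum may lack part of the reads of these 2. The annotation lists 128 Trav and 35 Trbv genes, and those not in the table were not analysed here. Of the 111 segments, 16 are annotated as pseudogenes, 10 Trav and 6 Trbv.

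Expression was deposited by the authors as FPKM, fragments per kilobase of transcript after scaling between libraries, and whole reads could be recovered from these values for all 111 segments. Libraries held 12068195 to 24522263 reads, of which 2359 to 6967 fell on Trav and 6955 to 21511 on Trbv segments. The sorted cells expressed Treg markers, with Foxp3 at 55.0 to 110 FPKM, Ikzf2 at 50.1 to 103 and Ctla4 at 50.01 to 197. The low values were those of WT 1 and KO 1, with Foxp3 at 83.0 and 55.0, Ikzf2 at 50.1 and 55.5 and Ctla4 at 111 and 50.01 FPKM. In the other libraries Foxp3 was 102 to 110, Ikzf2 85.7 to 103 and Ctla4 115 to 197 FPKM. Of the genes that mark CD8 T cells, Cd8a stayed at or below 0.428 FPKM, and Cd8b1 was 4.12 to 10.9 FPKM. Of the 5 Treg markers tested, Il2ra, which encodes the α chain of the IL-2 receptor, was the 1 that fell, from 114 ± 11 to 44.5 ± 3.7 FPKM (SD; log2 fold change −1.33, SE 0.11, limma), in a fit where 3.55% of all genes were lower and 3.21% higher. With the replicate number as a block, Cd4 was higher and Il2ra and Ctla4 lower. KO 5, with the highest Ctla4 (197 FPKM), has no WT library of the same number. It does not add to the genotype difference in that fit. Without WT 1 and KO 1, Cd4 and Ikzf2 were higher and Il2ra lower. Hsp90b1 was 44.4 to 62.9 FPKM in the WT and 1.77 to 3.11 FPKM in the KO libraries, so the deleted gene separated the labels in every library. Among the 9 libraries, WT 1 and KO 1 were unlike the rest, and calls of segments and of gene lists are also given without them.

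The level of TCR transcripts did not differ between genotypes beyond the spread of the libraries. Trac, the α constant gene, was 919, 552, 540 and 505 FPKM in WT 1 to WT 4 and 1001, 531, 550, 522 and 558 FPKM in KO 1 to KO 5. The values overlapped, and WT 1 and KO 1 were the highest of their groups. The log2 fold change of KO over WT was 0.00 (SE 0.28, limma on log2(FPKM + 1), adjusted p = 0.997), and the exact two-sided permutation p was 0.746. For the β constant genes Trbc1 and Trbc2 the log2 fold changes were 0.04 (SE 0.21, adjusted p = 0.968, limma) and −0.01 (SE 0.32, adjusted p = 0.989), with exact permutation p of 0.714 and 0.905. The sign of these 3 values was not stable across alternatives, and none was called in any of them. In the list of 11 TCR constant and CD3 genes, none rose and 1 fell in the fit, where 3.21% of the 12312 genes tested were higher and 3.55% lower in KO. With the replicate block, none rose and 4 fell, against 15.0% and 13.1% of all genes. When WT 1 and KO 1 were left out, none rose and 2 fell (Tcrg-C4 and Cd247), against 19.5% and 17.1%.

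The V segments followed the constant genes. The Trav sum was 705, 416, 422 and 386 FPKM in WT 1 to WT 4 and 821, 429, 423, 443 and 441 FPKM in KO 1 to KO 5. The Trbv sum was 2247, 1274, 1236 and 1142 FPKM in WT 1 to WT 4 and 2518, 1235, 1258, 1284 and 1412 FPKM in KO 1 to KO 5. In both loci the groups overlapped, and WT 1 and KO 1 were far above the rest. Divided by the constant genes, the libraries lay closer together. The ratio of Trav to Trac was 0.767 ± 0.012 in WT (SD, n = 4) and 0.807 ± 0.030 in KO (SD, n = 5), with ranges of 0.754 to 0.782 and 0.769 to 0.848. The ratio of Trbv to Trbc1 plus Trbc2 was 0.751 ± 0.062 in WT and 0.784 ± 0.070 in KO. In this ratio WT 1 and KO 1 stayed the highest of their groups, at 0.823 and 0.884. The other libraries lay at 0.697 to 0.808. Segment use was therefore compared as the share of each segment in the FPKM sum of its own locus, which removes the level of TCR transcripts. Shares of a locus add up to a fixed total, so a higher share of one segment lowers those of others.

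**Figure D1:**
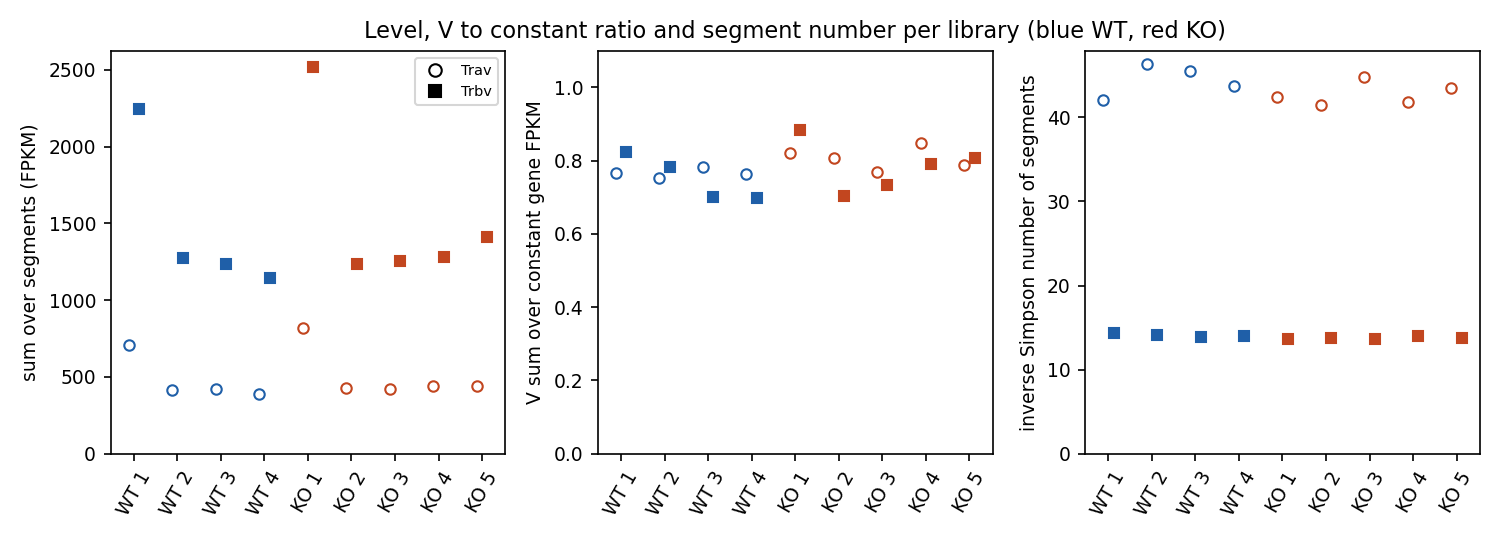
FPKM sum over segments, ratio of that sum to the constant genes (Trac for Trav, Trbc1 plus Trbc2 for Trbv) and inverse Simpson number of segments, per library (WT blue, KO red, Trav open circles, Trbv filled squares). WT 1 and KO 1 have Trav sums of 705 and 821 FPKM, against 386 to 443 in the other 7 libraries, while their Trav ratios to Trac lie at 0.767 and 0.821. Their Trbv ratios lie at 0.823 and 0.884, the highest of their groups.

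β segments were used unevenly, and α segments much more evenly. Trbv13-2, a member of the Vβ8 group, held 14.1% of the Trbv sum on average over the 9 libraries. By FPKM it was the most used β segment in each of them. It was followed by Trbv3 with 9.29%, Trbv1 (Vβ2) with 8.74%, Trbv16 (Vβ11) with 8.54%, Trbv15 with 6.09%, Trbv13-3 with 5.84%, Trbv13-1 with 5.82% and Trbv12-2 with 5.69%. Neighbours in this order often overlapped between libraries. By reads, which are not divided by segment length, Trbv3 was above Trbv13-2 in WT 1 (1442 against 1400), WT 2 (1018 against 975) and WT 3 (965 against 949). In the other libraries Trbv13-2 had more reads than Trbv3. Trbv15 ran from 5.16% to 7.39% and Trbv12-2 from 4.67% to 6.60%. The leading 8 segments made up 64.2% of the Trbv sum, and the 17 segments with at least 1% made up 97.5%. The effective number of β segments (inverse Simpson, the number of equally used segments that would give the same evenness) was 14.1 ± 0.2 in WT and 13.7 ± 0.1 in KO (SD, n = 4 and 5). In Trav, the leading 8 segments held 29.6% and 37 segments reached 1%, with 80.3% of the sum. The effective number was 44.4 ± 1.9 in WT and 42.8 ± 1.3 in KO, and the groups overlapped in both loci. The exponential of the Shannon entropy, which gives rare segments more weight, was 53.6 ± 1.4 in WT and 52.2 ± 1.4 in KO for Trav and 16.4 ± 0.1 and 16.2 ± 0.2 for Trbv.

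Of the 88 segments that passed the filter on low values, 2 were called by share, both in Trbv. In KO Tregs the share of Trbv1 rose from 7.30% to 9.90% and the share of Trbv12-1, one of the Vβ5 segments, fell from 4.85% to 3.36%, in a fit where 3.22% of all genes were higher and 3.55% lower. Trbv3 and Trbv20 also had lower shares in every KO than in every WT library, but did not pass the test over all 9 libraries. For no other segment, α or β, were the shares of the groups without overlap. Of all genes, 6.11% had every KO library above and 5.71% every KO library below the WT libraries.

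**Figure D2:**
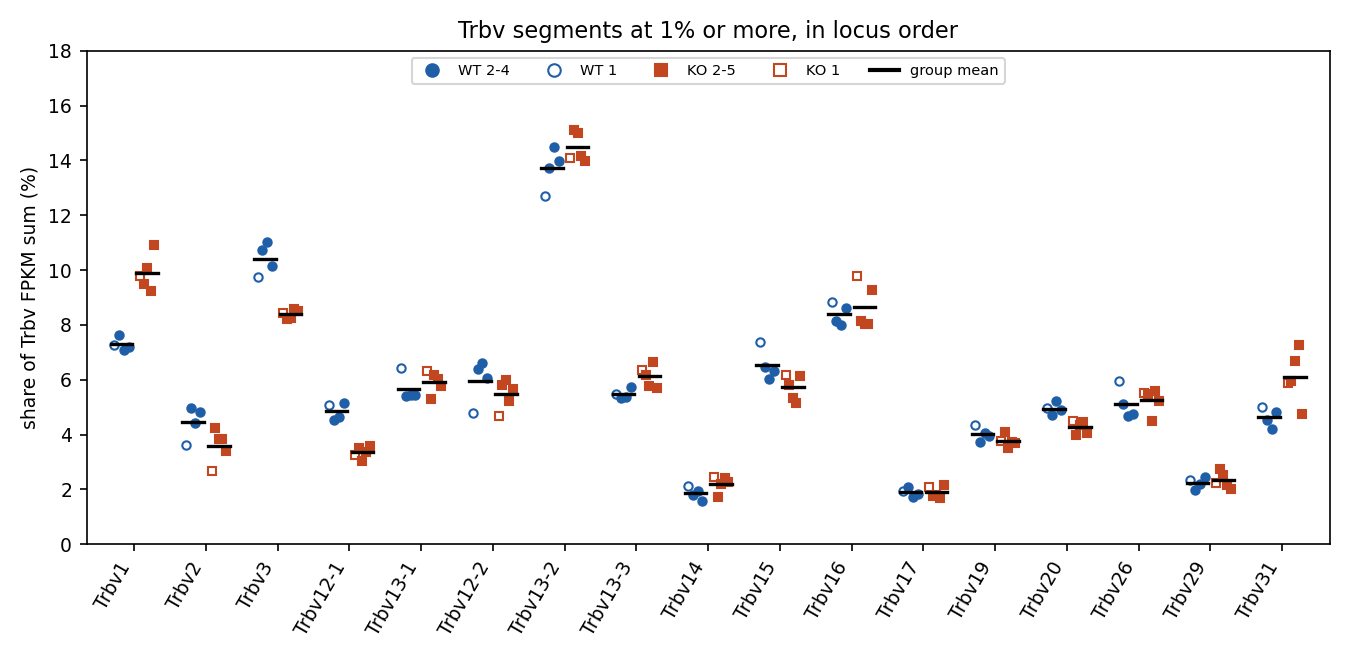
Share of the Trbv FPKM sum (percent) held by the 17 Trbv segments with a mean share of at least 1%, in the order of the locus. Each point is a library (WT blue circles, KO red squares, WT 1 and KO 1 open) and each line a group mean. Trbv1 is at 7.10% to 7.64% in WT and 9.23% to 10.9% in KO, and Trbv12-1 at 4.53% to 5.14% in WT and 3.05% to 3.60% in KO.

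Trbv1 held 7.26%, 7.64%, 7.10% and 7.19% of the Trbv sum in WT 1 to WT 4 and 9.77%, 9.51%, 10.1%, 9.23% and 10.9% in KO 1 to KO 5. Every KO library was above every WT library, and KO 1, with 9.77%, was in the middle of its group. The means were 7.30% ± 0.24 (SD, n = 4) and 9.90% ± 0.65 (SD, n = 5), a ratio of 1.36. The log2 fold change of the share was 0.43 (SE 0.10, adjusted p = 0.037, limma with Benjamini-Hochberg adjustment over 12312 genes). By reads, Trbv1 held from 570 of 7625 Trbv reads in WT 3 (7.48%, 95% Wilson interval 6.91% to 8.09%) to 665 of 8289 in WT 2 (8.02%, 7.46% to 8.63%). In KO it held from 679 of 6955 in KO 4 (9.76%, 9.09% to 10.5%) to 993 of 8580 in KO 5 (11.6%, 10.9% to 12.3%). These intervals cover counting error only. The call was kept without WT 1 (adjusted p = 0.049) and without KO 1 (0.018) and lost when any 1 of WT 2, WT 3, WT 4 and KO 2 to KO 5 was left out, with adjusted p between 0.079 and 0.146 and log2 fold changes between 0.40 and 0.46.

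Trbv12-1 held 5.09%, 4.53%, 4.65% and 5.14% in WT 1 to WT 4 and 3.25%, 3.53%, 3.05%, 3.35% and 3.60% in KO 1 to KO 5. The lowest WT library was above the highest KO library. The means were 4.85% ± 0.31 (SD, n = 4) and 3.36% ± 0.22 (SD, n = 5), and the log2 fold change was −0.52 (SE 0.09, adjusted p = 0.010, limma). The share stayed called with each library left out in turn, with adjusted p between 0.008 and 0.049. Its close relative Trbv12-2 held 4.79% to 6.60% in WT and 4.67% to 5.99% in KO, with a log2 fold change of −0.12 (SE 0.13, adjusted p = 0.784). The 42 bases at the ends of both segments end in the same letters, tacttcTGTgccagctctctc, so they begin CDR3 alike.

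Trbv3 held 9.76%, 10.7%, 11.02% and 10.1% in WT 1 to WT 4 and 8.43%, 8.23%, 8.26%, 8.57% and 8.49% in KO 1 to KO 5. The KO libraries lay within a narrow range below the WT libraries, and the log2 fold change was −0.31 (SE 0.10, adjusted p = 0.119). Trbv20 held 4.97%, 4.73%, 5.21% and 4.90% in WT 1 to WT 4 and 4.51%, 4.00%, 4.36%, 4.45% and 4.07% in KO 1 to KO 5, with a log2 fold change of −0.21 (SE 0.09, adjusted p = 0.246). Both were called without WT 1 and KO 1, at adjusted p = 0.00058 and 0.013. Trbv31, the last segment of the locus, held 5.00%, 4.54%, 4.20% and 4.83% in WT 1 to WT 4 and 5.90%, 5.94%, 6.68%, 7.28% and 4.77% in KO 1 to KO 5. KO 5 lay among the WT libraries, and the other 4 KO libraries above them. Its log2 fold change was 0.38 (SE 0.14, adjusted p = 0.164), and it was called without WT 1 and KO 1 (0.43, SE 0.14, adjusted p = 0.044).

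Counted over both loci together, these changes were not more frequent than among other genes. Of the 111 segments, 88 passed the filter on low values (65 Trav and 23 Trbv), and the 23 others held at most 0.226% of their locus on average. By share, 1 of the 88 was higher (Trbv1) and 1 lower (Trbv12-1) in KO, when 3.22% of all 12312 genes were higher and 3.55% lower. The unadjusted p was under 0.05 for 13 of the 88 (14.8%) and for 17.95% of all genes. The median log2 fold change of the share was 0.00 over the 88 segments and 0.02 over all genes tested. By share, none of the 65 Trav segments had groups that did not overlap. Of the 23 Trbv segments, 1 had KO above (Trbv1) and 3 KO below (Trbv3, Trbv12-1 and Trbv20), against 6.11% and 5.71% of all genes. With the replicate number as a block, 3 of 88 were higher (Trbv1, Trbv31 and Trbv13-3) and 8 lower (Trbv12-1, Trbv3, Trbv2, Trbv15, Trbv20, Trav15-2-dv6-2, Trav7d-4 and Trav14-1), against 14.9% and 13.1% of all genes. Without WT 1 and KO 1, 4 of 87 were higher (Trbv1, Trav13-1, Trav4-3 and Trbv31) and 10 lower, against 19.5% and 17.1%. Those lower were Trbv3, Trbv12-1, Trav15-2-dv6-2, Trbv20, Trbv2, Trav14-1, Trav7d-4, Trav7-1, Trav7d-3 and Trbv12-2. In each of these 3 fits the share of segments called, both loci together, was below that of all genes. Of the 88 segments 65 are Trav, while both segments called over the 9 libraries are Trbv. The pooled share therefore does not describe Trbv alone.

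Both segments at the ends of the β locus had higher mean shares in KO, of which Trbv1 was called over the 9 libraries and Trbv31 was not. Trbv1 is the first segment of the locus, 156 kb before Trbv2, and its share was 2.60 percentage points higher in KO. Trbv31 is the last, 666 kb from Trbv1, and was 1.47 points higher. The 2 lowest differences were those of Trbv3 (−2.01 points, not called) and Trbv12-1 (−1.50 points, called), at 157 kb and 222 kb. The mean shares of Trbv2 (−0.86 points), Trbv15 (−0.84) and Trbv20 (−0.68) were lower and those of Trbv13-2 (0.74) and Trbv13-3 (0.66) higher, and none of these 5 was called over the 9 libraries. Of the 17 segments with at least 1%, 9 had a higher and 8 a lower mean share in KO, and the gains summed over all 28 segments came to 6.78 points. Taken as a family, Trbv13-1, Trbv13-2 and Trbv13-3 together held 24.5% to 25.3% in WT and 25.5% to 27.0% in KO, which did not overlap, with a log2 fold change of 0.09 that was not called (adjusted p = 0.830). The Trbv12 family held 9.88% to 11.3% in WT and 7.93% to 9.36% in KO, with a log2 fold change of −0.29 (adjusted p = 0.190).

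**Figure D3:**
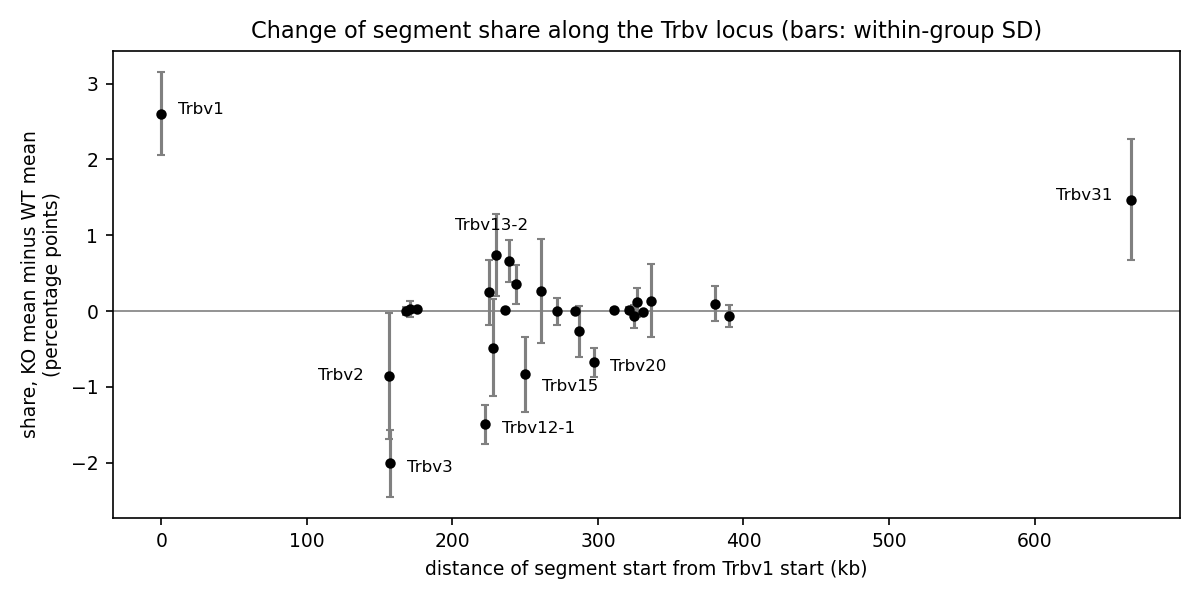
Difference in mean share of the Trbv FPKM sum between KO and WT (percentage points) for all 28 Trbv segments, against the distance of the segment's start from the start of Trbv1 in kb. Bars are the within-group SD of the share of Trbv reads. Trbv1 at 0 kb and Trbv31 at 666 kb lie at 2.60 and 1.47 points, and Trbv3 and Trbv12-1 at −2.01 and −1.50 points.

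Whole β profiles separated the genotypes, while α profiles did not. The difference between 2 libraries was measured as the percentage of segment use that would have to be moved to make them equal. In Trbv it averaged 4.77% among WT libraries (3.40% to 6.89%, 6 pairs), 4.92% among KO libraries (3.95% to 5.85%, 10 pairs) and 8.22% between genotypes (6.62% to 10.1%, 20 pairs). The only overlap came from pairs with WT 1, since without WT 1 and KO 1 pairs within a genotype reached 5.85% and pairs between genotypes began at 6.62%. For all 9 libraries, the library with the most similar Trbv profile was of the same genotype. In Trav the averages were 11.9% within WT, 11.9% within KO and 12.4% between genotypes, and the most similar library was of the same genotype for 4 of 9. Pairs share libraries, so these distances are a description with no test. Computed from reads, counting error alone would give a mean of 2.52% in Trbv and 8.13% in Trav for a pair of libraries of different genotype, against 8.42% and 12.2% measured. Trav held fewer reads over more segments, and the part of depth in the overlap of α profiles was not tested.

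**Figure D4:**
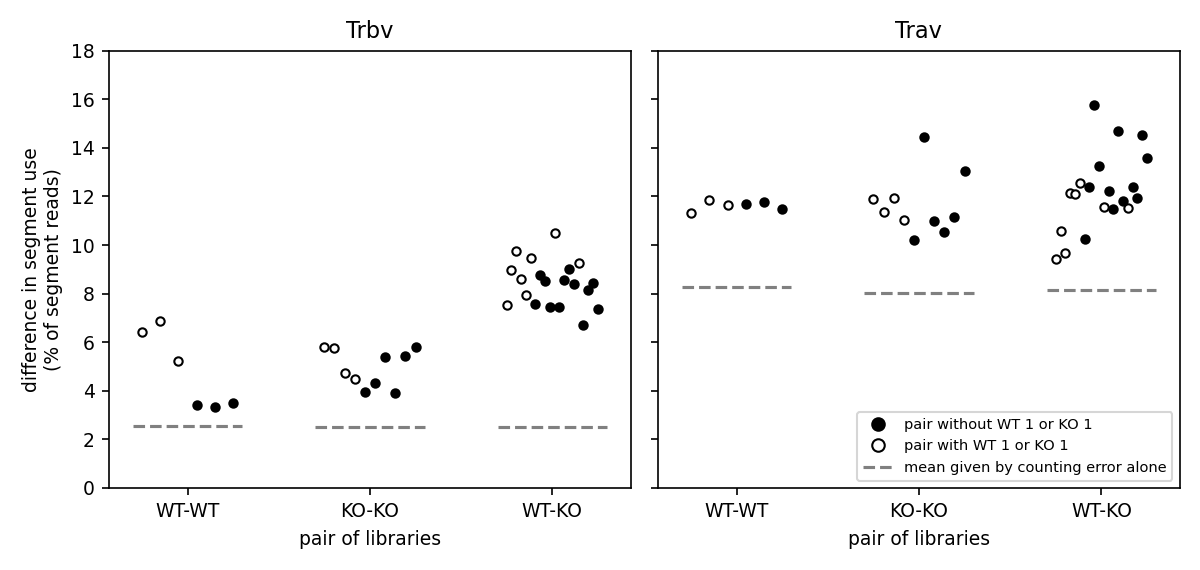
Difference in segment use between pairs of libraries (percent of segment reads that would have to be moved), for Trbv and Trav, among WT, among KO and between genotypes. Open points are pairs with WT 1 or KO 1, and the dashed line is the mean that counting error alone would give. Trbv pairs between genotypes average 8.42% against 4.79% and 4.96% within genotypes, and Trav pairs 12.2% against 11.6% and 11.7%.

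The most used α segments had overlapping shares in both genotypes. Trav4-4-dv10, a segment that can also be joined in δ chains, held 5.80%, 2.85%, 3.83% and 5.10% of the Trav sum in WT 1 to WT 4 and 5.39%, 3.66%, 4.40%, 4.74% and 3.63% in KO 1 to KO 5. Its values among WT libraries spanned more than those among KO libraries, and the log2 fold change was 0.02 (SE 0.21, adjusted p = 0.981). Trav7-4 held 3.61% to 4.31% in WT and 3.26% to 4.82% in KO, Trav3-3 3.14% to 3.77% and 3.72% to 4.92%, and Trav13-1 3.15% to 4.07% and 2.53% to 5.04%. Trav9-4 held 3.68% to 4.35% in WT and 2.54% to 4.05% in KO, Trav9-1 2.97% to 4.05% and 3.33% to 4.13%, Trav14n-3 2.40% to 3.83% and 3.37% to 3.80%, and Trav5-4 2.27% to 3.01% and 2.39% to 3.60%. Adjusted p for these 8 segments lay between 0.366 and 0.987. The differences in mean share over all 83 Trav segments ran from −0.77 to 0.62 percentage points, with 38 higher and 45 lower in KO. Trav14-1 had the lowest of these, with 2.34% to 3.31% in WT and 1.78% to 2.49% in KO (log2 fold change −0.42, SE 0.14, adjusted p = 0.122), and Trav4-3 the highest, with 1.85% to 2.22% and 2.16% to 3.16% (0.35, SE 0.12, adjusted p = 0.157).

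**Figure D5:**
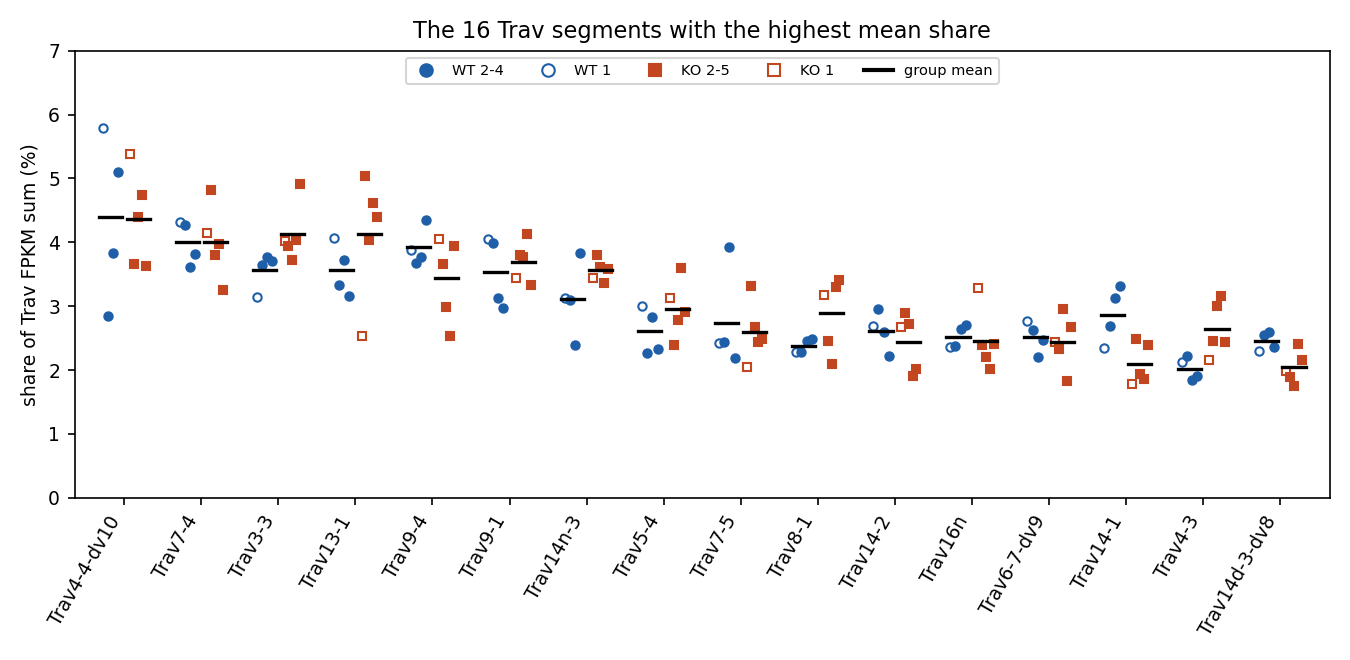
Share of the Trav FPKM sum (percent) held by the 16 Trav segments with the highest mean share. Each point is a library (WT blue circles, KO red squares, WT 1 and KO 1 open) and each line a group mean. WT and KO overlap for every segment shown, for example at 2.85% to 5.80% and 3.63% to 5.39% for Trav4-4-dv10.

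Trav15-2-dv6-2, a rare segment that is also used in δ chains, was the only segment called by FPKM. It measured 2.25, 2.31, 3.47 and 2.88 FPKM in WT 1 to WT 4 and 1.61, 1.46, 0.964, 0.787 and 1.40 FPKM in KO 1 to KO 5, so the groups did not overlap. These values rest on 12 to 20 reads per WT and 4 to 13 reads per KO library. The log2 fold change on the log2(FPKM + 1) scale was −0.73 (SE 0.16, adjusted p = 0.024, limma), and its share fell short of a call (−0.81, SE 0.21, adjusted p = 0.058). Without WT 2, WT 3, WT 4, KO 3 or KO 4 the adjusted p by FPKM lay between 0.056 and 0.096. It shares part of its sequence with Trav15d-2-dv6d-2 and Trav15n-2, and the Trav15 family as a whole held 1.57% ± 0.29 in WT and 0.98% ± 0.30 in KO (log2 fold change of the share −0.61, adjusted p = 0.151). By FPKM none of the 88 segments was called higher and 1 lower, and 1 had an unadjusted p under 0.05. With the replicate block, 7 were higher and 4 lower, against 15.0% and 13.1% of all genes. Without WT 1 and KO 1, 5 of 87 were called in each direction, against 19.5% and 17.1% of all genes.

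The α segments of innate-like T cells were also read in each library. Trav11, which invariant NKT cells use, had 1 read each in WT 2, KO 1 and KO 3 and none in the other 6 libraries, where a count of 0, taken as at most 3 reads of the Trav total, allows a share of up to 0.0758% (WT 1) to 0.127% (KO 4). Nearly all of its sequence also occurs in Trav11d, which was not analysed here, so reads of Trav11 may not have been assigned to it. Trav1, the α segment of MAIT cells, held 0.742%, 0.950%, 0.697% and 0.786% in WT 1 to WT 4 and 0.798%, 1.15%, 0.871%, 0.532% and 1.19% in KO 1 to KO 5. The groups overlapped (log2 fold change 0.13, SE 0.19, adjusted p = 0.842). Zbtb16, the transcription factor of innate-like T cells, was at most 0.194 FPKM, with means of 0.127 in WT and 0.026 in KO, and was not tested. Of the 5 genes used from that list, 4 were tested, and Cd1d1, which encodes an antigen-presenting molecule, rose from 20.3 to 34.7 FPKM (log2 fold change 0.74, SE 0.13, adjusted p = 0.010). In this list 1 of 4 was higher, against 3.21% of all genes. With the replicate block Tbx21, a transcription factor of type 1 responses, was also called higher (0.50, adjusted p = 0.047), where 15.0% of all genes were higher. Without WT 1 and KO 1, Cd1d1 was the 1 gene called, and it was higher, against 19.5% of all genes.

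Single libraries rarely departed from the rest. Among segments with at least 1% of their locus, the ratio of the share in 1 library to the median of the other 8 was at most 2.07 in Trav and 1.48 in Trbv. The 5 highest ratios in Trav were those of Trav7n-4 (2.11% in WT 2 against a median of 1.02%), Trav6-4 (1.98% in WT 2 against 1.06%), Trav8n-2 (1.80% in KO 5 against 1.01%), Trav6n-6 (2.17% in WT 3 against 1.24%) and Trav7-5 (3.92% in WT 3 against 2.44%). In Trbv they were Trbv31 in KO 4, Trbv12-1 in WT 4, Trbv1 in KO 5, Trbv3 in WT 3 and Trbv2 in WT 2 (4.96% against 3.85%). The other 8 libraries include both genotypes, so segments whose share differs by genotype can rank high here. WT 1 was close to WT 4 for Trbv12-1, and WT 2 to WT 3 for Trbv3. The highest share that a Trav segment reached in a library was the 5.80% of Trav4-4-dv10 in WT 1. Within groups, the SD of the share of reads was a median of 1.79 times the SD that counting error gives for the 17 Trbv segments and 1.32 times for the 37 Trav segments. Trbv31 and Trbv2 varied most among the Trbv segments, at 3.19 and 3.32 times.

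Groups of α segments by copy, position and δ use had close means in both genotypes. Segments with d or n in the name, 31 of 83, held 24.8% ± 1.0 of the Trav sum in WT and 24.1% ± 1.4 in KO. The 8 segments with a dv name, which can join in δ chains, held 13.6% ± 1.3 and 12.6% ± 1.1. With Trav segments divided into 4 groups along the locus, the first 21 held 13.9% ± 0.9 in WT and 13.0% ± 0.8 in KO, the next 21 19.7% ± 0.4 and 19.6% ± 1.0, the third 21 38.6% ± 1.4 and 39.2% ± 2.0 and the last 20, nearest the joining segments, 27.8% ± 1.7 and 28.2% ± 0.8.

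Markers of other cells moved with genotype in part. The 5 B cell markers used summed to 77.5 to 101 FPKM in WT, 77.3 in KO 1 and 35.6 to 44.4 in KO 2 to KO 5, and 2 of the 3 tested (Cd74 and Cd79a) fell, against 3.55% of all genes. The third, Cd79b, was lower without WT 1 and KO 1 (log2 fold change −0.31, adjusted p = 0.0056), as were the other two, where 17.1% of all genes were lower. Ms4a1 and Pax5, which define B cells, were near 0 throughout (at most 0.393 and 0.449 FPKM) and were not tested. Their means were 0.301 and 0.278 FPKM in WT and lower in KO, at 0.056 and 0.062. In KO 1 the B cell sum was at the WT level and came mostly from Cd74 and Cd79b. Cd79a was lower in KO 1 than in any other library, so the sum does not stand for all B cell markers there. The Trbv1 and Trbv12-1 shares of KO 1, 9.77% and 3.25%, were within the range of KO 2 to KO 5. Of γδ T cell genes, Tcrg-C4 fell from 3.57 to 1.67 FPKM (log2 fold change −0.78, SE 0.16, adjusted p = 0.023), and Trdc was 1.36 ± 0.42 FPKM in WT and 0.765 ± 0.209 in KO (adjusted p = 0.183). The co-receptor Cd4 was 161 to 258 FPKM in WT and 180 to 297 in KO and Cd8b1 6.36 to 10.9 and 4.12 to 9.75, and neither was called over 9 libraries. With the replicate block Cd4 was called higher (adjusted p = 0.026) and Cd8b1 lower (adjusted p = 0.035), when 15.0% of all genes were higher and 13.1% lower. Both were called in the same directions without WT 1 and KO 1 (adjusted p = 0.0049 and 0.017), against 19.5% and 17.1%. Of the recombination list, Rag1 was at most 0.037 FPKM and Dntt at most 0.631, and neither was tested. The means of Dntt were 0.326 FPKM in WT and 0.074 in KO. The part of these genes in the segment shares was not tested.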

How the data were processed

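The authors sequenced strand-specific paired-end libraries (NEBNext Ultra), with reads called by CASAVA, cleaned with fastp and assigned to mm10 per the submitters' processing notes. For the aligner, counter, annotation and use of strand: not given in the sources used here. The deposited FPKM carry a scaling across libraries, since median-ratio factors were the same in all 9 libraries. Multiplying FPKM by GENCODE M21 gene lengths and 1 constant per library gave whole reads, to a tolerance of 0.01, in 24387 of 25500 entries (95.6%).

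The members and lists were chosen with earlier results of these data known. Named segments were the 8 per locus with the highest mean share, all those called, the 5 per locus with the most deviant library, Trav11 and Trav1, beside Hsp90b1 and the lists of TCR constant and CD3, co-receptor, recombination and pre-TCR, innate-like T cell, B cell and Treg genes. Trav15-2-dv6-2, Trbv31, Trav14-1 and Trav4-3 were also described for values seen. Rag2, Ptcra and Trav11d were not analysed here, and 1 gene each of the B cell and innate-like T cell lists is not reported here.

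limma 3.58.1 (R 4.3.3) with a trend was fitted to log2(FPKM + 1) of genes above 1 FPKM in at least 4 of 9 libraries, with genotype only and Benjamini-Hochberg adjustment over all genes (calls under 0.05). Trav and Trbv rows were tested as deposited and after division by the locus sum of the library and multiplication by its mean. Log2 fold changes understate changes of low genes. The script was tested on simulated data. Exact permutation tests were two-sided, and the smallest p that 4 against 5 libraries allow is 0.0159. p-values set the difference between genotypes against the spread between these samples. Same-numbered libraries deviated together (correlations of 0.867, 0.425, 0.316 and 0.469), so the replicate number was fitted as a block. KO 5 has no WT library of the same number, so it does not add to the genotype difference in that fit. Without WT 1 and KO 1 the correlations of pairs 2 to 4 were −0.049, −0.174 and 0.029. Tables and figures were made with Python 3.11.15, pandas 2.3.3 and matplotlib 3.10.9, and segments aligned with Biopython 1.88. No 2 libraries held identical values.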

Additional observations from a re-analysis of the deposited data

Results flagged for a closer look

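Dixon's test of the highest or lowest library in each group, run on 58 groups of values, singled out 10, and chance gives about 1 in 20. Of these, 8 were WT 1 or KO 1 in the level of TCR transcripts. The Trav sum was 705 FPKM in WT 1 (386 to 422 in the other WT libraries) and 821 in KO 1 (423 to 443 in the other KO libraries). The Trbv sum was 2247 in WT 1 (1142 to 1274) and 2518 in KO 1 (1235 to 1412). Trac was 919 FPKM in WT 1 (505 to 552) and 1001 in KO 1 (522 to 558). In KO 1, Trbc1 was 888 FPKM (609 to 664) and Trbc2 1961 FPKM (1017 to 1098). The other 2 were shares of single segments. Trbv13-1 held 6.44% of the Trbv sum in WT 1, when the other WT libraries held 5.40% to 5.43%, and Trav3-3 held 4.92% of the Trav sum in KO 5, when the other KO libraries held 3.72% to 4.04%.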

How the results depend on the processing

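The count of segments called by share depended most on the libraries used. With WT 1 to WT 4 against KO 2 to KO 5 it was 2 higher and 1 lower. Without WT 1 and KO 1 it was 4 higher and 10 lower, and with the replicate block 3 and 8. With no filter on low values, or with a filter at 5 FPKM, it was 0 higher and 1 lower, since the adjusted p of Trbv1 became 0.050 and 0.052, and with segments summed into families 1 higher and 0 lower. With 1 library left out it was 0 to 2 higher and 1 to 2 lower. By FPKM, 5 higher and 5 lower were called without WT 1 and KO 1 and 7 and 4 with the replicate block. No segment was called with no filter, with the filter at 5 FPKM or by limma-voom on recovered reads, where 1, 0 and 1 segments had an unadjusted p under 0.05. With 1 library left out it was 0 to 1 in each direction. Leaving out KO 1 is the same fit as WT 1 to WT 4 against KO 2 to KO 5. Over the 16 distinct alternatives, Trbv12-1 stayed called by share in all and Trbv1 in 7, with log2 fold changes of −0.56 to −0.49 and 0.40 to 0.46. Median-ratio scaling changes nothing by construction, since its factors are equal. Where no value shows otherwise, the cause of these differences was not tested.

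The log2 fold changes of the constant genes were near 0 and changed sign. Trac was −0.17 against KO 2 to KO 5 and −0.027 by limma-voom, Trbc1 −0.056 against KO 2 to KO 5, and Trbc2 0.022 without WT 1 and KO 1 and 0.022 with the replicate block. With 1 library left out they ran from −0.17 to 0.20 for Trac, −0.056 to 0.14 for Trbc1 and −0.19 to 0.20 for Trbc2.

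In families, the inverse Simpson number was 11.1 in WT and 11.4 in KO for Trav and 8.81 and 8.42 for Trbv. For Trbv families the groups did not overlap, at 8.65 to 8.96 in WT and 8.31 to 8.63 in KO. The exponential of the entropy in families was 13.3 and 13.3 for Trav and 11.9 and 11.7 for Trbv. Both numbers were lower than for segments, since families are fewer. With segments above 1 FPKM only, the exponential of the entropy was 51.5 and 50.3 for Trav and 16.3 in WT for Trbv. From reads, the inverse Simpson number was 14.0 in KO and the exponential of the entropy 16.2 in WT for Trbv. With 1 library left out, ratios of V to constant genes ran from 0.761 to 0.771 in WT and 0.797 to 0.817 in KO for Trav, and from 0.727 to 0.769 and 0.759 to 0.803 for Trbv. Trav had a median of 24 reads per segment and library and Trbv 258.5.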

Other observations

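Pseudogene segments, which cannot give a working receptor chain, held smaller shares in WT 1 and KO 1 than in the other 7 libraries. The sums that these shares are divided by were far higher in WT 1 and KO 1 (705 and 821 FPKM for Trav, against 386 to 443). A smaller share there therefore does not by itself mean a lower pseudogene level, which was not compared. In Trav the 10 pseudogenes held 0.963% and 0.800% in WT 1 and KO 1 and 1.34% to 2.50% in the others. In Trbv the 6 pseudogenes held 0.201% and 0.214% in WT 1 and KO 1 and 0.410% to 0.846% in the others. Trbv24 made up most of the latter, with 0.124% and 0.116% in WT 1 and KO 1 and 0.262% to 0.714% in the other libraries.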
